A study of Homo sapiens with 8 samples.

Results

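Small open reading frames (smORFs) that lie in the genes of proteasome subunits were taken out of a Ribo-Seq table of Caco-2 cells. A smORF was included when the host gene symbols given to it in the deposited annotation held a subunit, activator, inhibitor or chaperone symbol of the PSMA to PSMG families, antisense symbols left aside. This gave 45 of the 24199 smORFs in the table, in 21 host genes. They were 10 smORFs in 5 genes of the 20S core alpha ring (PSMA1, PSMA3, PSMA4, PSMA5 and PSMA7), 4 in 4 genes of the constitutive beta ring (PSMB1, PSMB2, PSMB3 and PSMB5), 11 in 3 immunoproteasome genes (PSMB8, PSMB9 and PSMB10), 3 in 2 genes of the 19S base ATPases (PSMC2 and PSMC5), 10 in 4 genes of the 19S non-ATPase subunits (PSMD1, PSMD3, PSMD7 and PSMD14) and 7 in 3 activator genes (PSME1, PSME2 and PSME3). No smORF carried the symbol of the inhibitor PSMF1 or of a PSMG assembly chaperone.

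Ribo-Seq sequences the RNA fragments that ribosomes shield from nuclease. Caco-2, a human colon adenocarcinoma cell line, differentiates in culture into cells that resemble absorptive enterocytes. The labels give 4 groups with 2 libraries each. These are undifferentiated cells and differentiated cells labelled control (differentiated control). The others are differentiated cells given micelles made of taurocholate and no lipid, and differentiated cells given lipid micelles with BSA, oleic acid and cholesterol. All libraries come from the same cell line and were made with cycloheximide in the wash and lysis buffers. The labels give neither the days of differentiation nor the micelle dose, and do not say whether the replicates are separate cultures. The p-values here therefore measure the spread between these libraries, which may be technical. For mass spectrometry the paper describes Caco-2 cells lysed undifferentiated, or differentiated for longer and kept overnight without serum, alone or with micelles. Whether the Ribo-Seq cultures followed that scheme is not stated. Days in culture and serum may therefore also differ between undifferentiated and differentiated cells here. The counts cover smORFs only, so the translation of the proteasome proteins themselves was not analysed here.

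The proteasome degrades proteins that carry ubiquitin chains. Its 20S core is a barrel of stacked rings, with outer alpha rings that gate the entrance and inner beta rings that hold the proteolytic sites. The 19S regulatory particle caps the core: its ATPases unfold the substrate and feed it in, and its non-ATPase subunits bind ubiquitin chains and cut them off. Interferon-inducible beta subunits replace the constitutive catalytic ones in the immunoproteasome, and PSME proteins form an alternative cap. Upstream open reading frames (uORFs), the class that most of these smORFs belong to, lie in front of the coding sequence, where ribosomes scan before they reach the main start.

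The first bases of the leading smORFs that carry the results below are shown first, since most of them do not begin with ATG. The leading smORF of a gene is the member with the highest mean count over the 8 libraries. Each line gives at most 30 bases, 5′ to 3′, on the coding strand of hg38, and capitals mark the first codon as annotated.
PSMB2 IEC_17043: AATcttcgctctgaggtgctgtctcaccgg
PSMB3 IEC_11036: ACCcggtttactggaattgctctggcgatc
PSMA4 IEC_09832: ATTagcagcggttattcggtgagcggtggt
PSMD1 IEC_01906: CCTggcgagaagcgagccggcggcctgagg
PSMD14 IEC_05191: AATatacttggggaagttgtacctgccaga
PSME3 IEC_09222: CGCagtttccggcgtgagcggcgaaagccg
PSMC2 IEC_12280: GAAagggaagacaccaccggaagcaaggaa
PSMA1 IEC_18529: ATGtattcatggtcagctctcagcaaggcc
PSME1 IEC_09805: CCAggaaggcggagctgggtgcgagcgccc
PSMB1 IEC_13677: CCGgtcaaggcagccatctcgccg
The PSMB2 smORF lies at chr1:35641497-35641526 on the minus strand, the PSMB3 smORF at chr17:38752773-38752811 on the plus strand, the PSMA4 smORF at chr15:78540446-78540601 (plus), the PSMD1 smORF at chr2:231056869-231056958 (plus), the PSMD14 smORF at chr2:161316455-161316502 (plus) and the PSME3 smORF at chr17:42833396-42833506 (plus). The PSMC2 smORF lies at chr7:103347636-103347674 (plus), the PSMA1 smORF at chr11:14611008-14611130 (minus), the PSME1 smORF at chr14:24136163-24136243 (plus) and the PSMB1 smORF at chr6:170553282-170553305 (minus). Each of these 10 lies in an exon of its host gene in GENCODE release 44 and has no base in annotated coding sequence on its strand. Of the 156 bases of the PSMA4 smORF, 94 lie in an annotated untranslated region. The 1 PSMA4 transcript that holds it whole has no annotated coding sequence. Of the 10, the PSMA1 smORF alone begins with ATG.

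Over all members, 10 of 45 (22.2%) began with ATG, against 43.4% of all smORFs in the table, 4 (8.89%) began with a near-cognate codon, against 9.16%, and 31 (68.9%) began with another codon, against 47.4%. The start codons are given as annotated. Of the 38 members found whole in a GENCODE transcript of the host gene, 22 start within the first 3 bases of that transcript. The first codon of such a frame is the first complete codon of the transcript and need not be where a ribosome starts. Others start further in, among them the leading smORFs of PSMB3 (base 10), PSMD14 (base 199) and PSME3 (base 255), none with ATG. The share of frames at a transcript end over all smORFs was not counted, and the cause of the excess of other start codons was not tested. An in-frame stop codon follows each of the 38. The 45 members had a median length of 23 amino acids, from 6 to 63, against a median of 31 for all smORFs. By location class 38 (84.4%) were uORFs, against 69.9%, 2 were dORFs (in the 3′ untranslated region of PSMA4 and PSME1) and 5 were assigned to non-coding RNA. Repeats overlapped 5 members (11.1%), against 39.7%. RibORF scores, which rate how far reads follow the reading frame, had a median of 0.877 against 0.876. Mean PhyloCSF, a measure of protein-coding conservation, was above 0 in 0 of 45 members and in 1.75% of all smORFs.

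**Figure D1:**
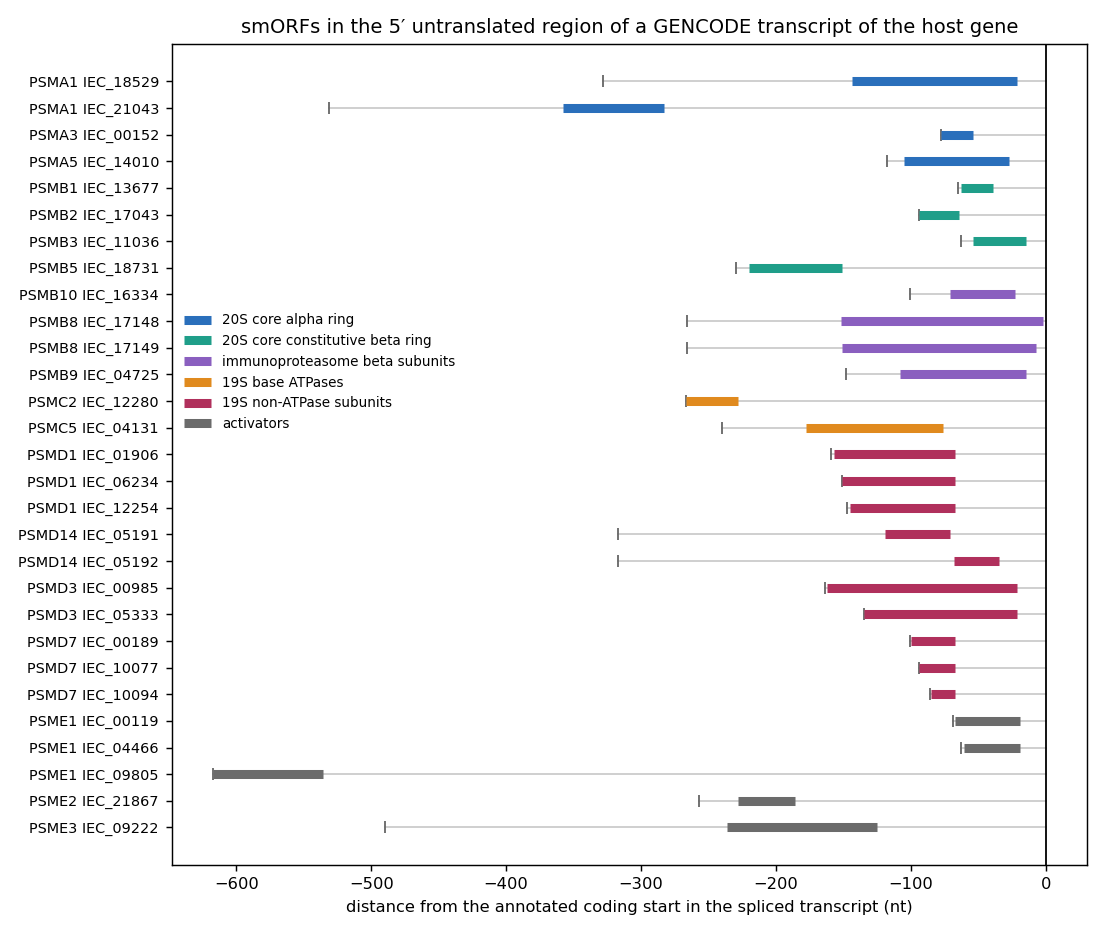
Position of the 29 member smORFs that lie in the 5′ untranslated region of a GENCODE transcript with a coding sequence. The x axis is the distance in nucleotides from the annotated coding start of that transcript, thick bars are smORFs coloured by particle, grey lines run from the 5′ end of the transcript (tick) to the coding start (vertical line), and 11 of the 29 bars end within 30 nucleotides of the coding start.

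The members are not independent of each other. They fall into 30 clusters of smORFs that overlap on the same strand, and 24 of the 45 share a cluster with another member, so that a read in the shared bases adds to each. The PSMD1 smORFs IEC_01906 and IEC_06234 had identical counts in every library. Of the 29 members in a 5′ untranslated region, 11 end within 30 nucleotides of the coding start. The PSMB3 smORF ends 15 nucleotides before it, and reads of ribosomes on the coding start were not separated from reads of the smORF. PSMB8 and PSMB9 overlap the antisense transcript PSMB8-AS1. Of the 7 PSMB9 members, 5 have no base in a PSMB9 exon and lie in exons of PSMB8-AS1, the leading smORF IEC_05267 among them. The 3 PSMB8 members lie opposite PSMB8-AS1. The strand setting of the counting is not stated, so the values of these 10 smORFs are uncertain.

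Library totals ran from 506382 to 884711 smORF counts. Member smORFs took 0.288% and 0.301% of the counts in the undifferentiated libraries and 0.121% to 0.160% in the 6 differentiated libraries. Of the 45 members, 5 had no count in any library, 30 reached 10 counts in at least 1 library and 14 reached 10 counts in all 8. Markers were read through the smORFs of their genes. smORFs of cycling genes (5 of 8 genes have any, TOP2A and MKI67 among them) took 0.733% to 0.783% of counts in undifferentiated cells and 0.0487% to 0.0666% in the differentiated libraries, and all 19 tested were called lower on differentiation. smORFs of absorptive enterocyte genes (6 of 12 genes, among them APOA4 and APOB) took 0.139% to 0.180% and 0.308% to 0.535%. Of these, 6 in 4 genes were tested, with 5 called higher and 1 called lower. ALPI, SI, FABP2, MTTP, SLC5A1 and LCT had no smORF. smORFs of colon epithelium genes (4 of 9 genes) took 0.050% to 0.0642% and 0.110% to 0.129%. smORFs of fibroblast genes (2 of 5 genes have any) summed to 0 or 1 count in each library, and those of leukocyte genes (2 of 4 genes) to 9 at most. Goblet smORFs lie in 1 of 4 genes, REG4, and took 0.0154% to 0.0183% in undifferentiated cells and at most 0.000386% after differentiation. With so few genes these sums do not show whether such cells were absent. The part of the fall in cycling genes in the results below was not tested. In bulk Ribo-Seq counts, fewer cells of a type, less RNA per cell and fewer ribosomes per RNA cannot be told apart.

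The first comparison asked how the proteasome host gene smORFs differ between undifferentiated and differentiated cells. Leading smORFs of PSMA4, PSMB2 and PSMB3 in the core, PSMD1 and PSMD14 in the regulatory particle and the activator PSME3 were called lower in control cells, and those of the immunoproteasome held few counts in every group. Summed over the 4 constitutive beta ring genes, leading smORFs stood at 1132 and 1116 CPM (smORF counts scaled to the TMM-adjusted library total) in the undifferentiated libraries and at 403 and 499 CPM in the control libraries. This was a ratio of the means of 2.49. The 5 alpha ring genes summed to 709 and 782 CPM against 424 and 378 CPM, a ratio of 1.86. The 4 non-ATPase genes of the 19S particle summed to 294 and 272 CPM against 166 and 159 CPM, a ratio of 1.74, and the 2 base ATPase genes to 50.3 and 55.1 CPM against 25.4 and 15.6 CPM, a ratio of 2.57. In each of these 4 particles both undifferentiated libraries lay above both control libraries. How often sums over other genes separate in this way was not counted. Few genes carry much of the ring sums. Mean levels went from 409 to 144 CPM for PSMA4, 703 to 221 CPM for PSMB3 and 173 to 50.4 CPM for PSMB2. PSMA1 went the other way, and the groups overlapped for PSMB1 and PSMB5. The base ATPase sums rest on 32 and 31 counts against 13 and 12 counts. The 3 activator genes did not separate, with 89.6 and 60.4 CPM against 80.2 and 32.5 CPM. The 3 immunoproteasome genes had 3.14 and 8.89 CPM against 15.6 and 6.50 CPM, which rests on 2 and 5 counts against 8 and 5 counts.

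**Figure D2:**
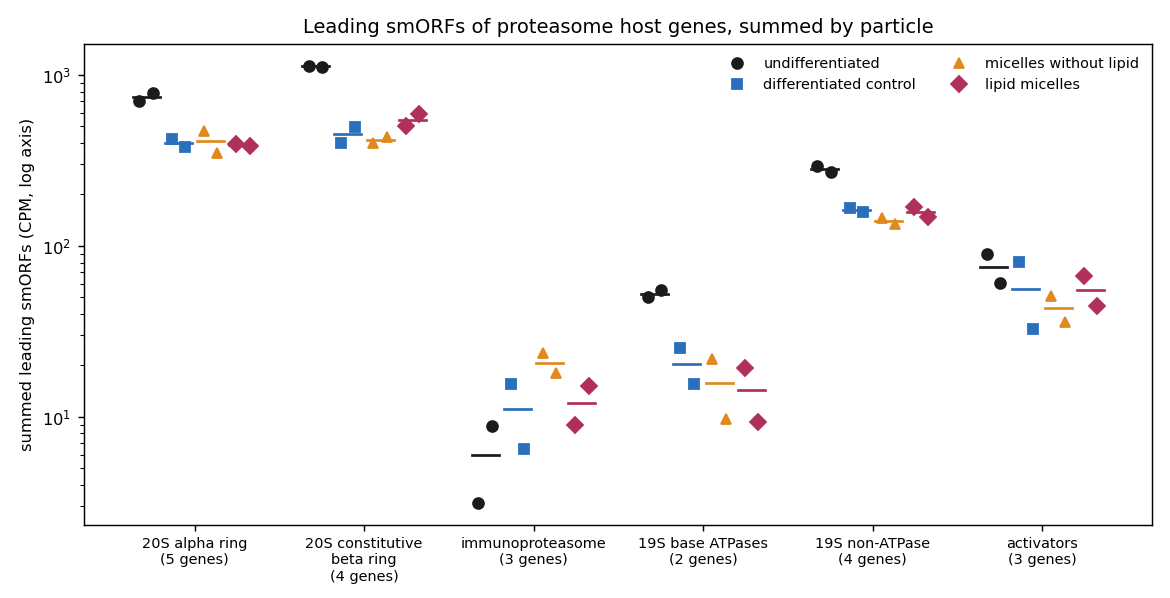
Summed CPM of the leading smORFs of each particle (log axis), with 1 point per library, a horizontal line for the mean of the 2 libraries of a group, and the number of host genes under each name. In the alpha ring, the beta ring, the base ATPases and the non-ATPase subunits both undifferentiated libraries lie above all 6 differentiated libraries, and the immunoproteasome sums stay under 24 CPM in every library.

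Taken over all 21 host genes, leading smORFs held 0.216% (95% Wilson interval 0.205% to 0.227%) and 0.221% (0.209% to 0.233%) of counts in undifferentiated cells and 0.113% (0.104% to 0.122%) and 0.107% (0.0997% to 0.114%) in control cells. The intervals cover counting error only. Of the 45 members, 27 in 15 host genes passed the filter on low counts and were tested within the whole table. Calls needed an adjusted p under 0.05 (edgeR quasi-likelihood test, Benjamini-Hochberg over all 15182 smORFs tested) together with a log2 fold change of 1 or more in size. On differentiation 10 of the 27 were called lower, where 15.6% of all smORFs tested were, and 0 were called higher by edgeR or DESeq2, where edgeR called 17.7% of all. At an unadjusted p under 0.05, 3 of the 27 were higher (PSMA1 and 2 PSME1 smORFs), against 23.9% of all. The 10 calls lie in 6 host genes. Of the 27, 22 had a log2 fold change below 0, and the median was -0.72 against 0.01 over all smORFs tested. With 1 smORF kept per overlap cluster 6 of 16 members were called lower, against 15.7% of all. Both undifferentiated libraries lay above all 6 differentiated libraries for 17 of the 27, a pattern that 25.8% of all smORFs tested showed, and below them for 1 of the 27 (PSMA1), against 26.7% of all.

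In the alpha ring, smORFs of PSMA4 fell. The leading PSMA4 smORF IEC_09832 stood at 398 and 421 CPM in undifferentiated cells, 174 and 114 CPM in control cells, 138 and 91.2 CPM with micelles without lipid and 135 and 137 CPM with lipid micelles. Both undifferentiated values lay above the other 6. The log2 fold change on differentiation was -1.52 ± 0.28 (SE, adjusted p = 0.000449 by edgeR), a level 2.86-fold lower. The overlapping PSMA4 smORFs IEC_09838 (-1.71 ± 0.26, adjusted p = 7.52e-05) and IEC_09792 (-1.57 ± 0.51, adjusted p = 0.0243) were called too, though IEC_09792 had 17 and 6 counts in control cells and lost its call in the DESeq2 test, without undifferentiated replicate 2 (-1.34) and without control replicate 2 (-0.72). Without control replicate 1 it had -2.77. The PSMA4 dORF IEC_00043 had at most 3.9 CPM in any library and did not pass the filter on low counts.

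The smORFs of PSMA7 and PSMA5 were lower in control cells without a call. The PSMA7 smORF IEC_16895 had 134 and 178 CPM in undifferentiated cells and 72.3 and 96.2 CPM in control cells (log2 fold change -0.87 ± 0.28, adjusted p = 0.0232), under the limit on size. The PSMA5 smORF IEC_14010 had 110.0 and 117 CPM against 89.9 and 58.5 CPM (-0.64 ± 0.30, adjusted p = 0.104). In both genes both undifferentiated libraries lay above all 6 differentiated libraries, a pattern that 25.8% of all smORFs tested showed. The PSMA3 smORF IEC_00152 had 23.6 and 23.1 CPM against 15.6 and 13.0 CPM (-0.72 ± 0.48, adjusted p = 0.253), and reached 20.8 and 25.6 CPM with lipid micelles.

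PSMA1 went the other way. Its leading smORF IEC_18529 had 44 and 42.7 CPM in undifferentiated cells, 72.3 and 96.2 CPM in control cells, 118 and 87.1 CPM with micelles without lipid and 62.4 and 78.0 CPM with lipid micelles. All 6 differentiated values lay above both undifferentiated ones, and the log2 fold change was 0.97 ± 0.32 (adjusted p = 0.0243 by edgeR), just under the limit on size. It passed that limit without control replicate 1 (1.19), without either lipid micelle library (1.01 and 1.02), without replicate 1 of micelles without lipid (1.02) and with at least 10 counts required in every library. Its adjusted p rose to 0.101 by DESeq2, to 0.0941 and 0.0959 without undifferentiated replicate 1 or 2, and to 0.185 without control replicate 2, where the log2 fold change was 0.77. This smORF lies in the 5′ untranslated region of a PSMA1 transcript, ends 21 nucleotides before its coding start, and overlaps a repeat. The other PSMA1 smORF, IEC_21043, lies at chr11:14520116-14520190, downstream on the minus strand, in transcripts with another first exon. It held 7.8 to 13.8 CPM in the 8 libraries and did not pass the filter on low counts.

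In the constitutive beta ring, the smORFs of PSMB2 and PSMB3, genes of structural subunits without a proteolytic site, fell. PSMB2 IEC_17043 had 176 and 171 CPM in undifferentiated cells, 48.9 and 52.0 CPM in control cells, 47.1 and 59.5 CPM with micelles without lipid and 59.4 and 50.1 CPM with lipid micelles. The log2 fold change was -1.77 ± 0.28 (adjusted p = 0.000131 by edgeR), a level 3.42-fold lower and the lowest log2 fold change of the 27 members. The 6 differentiated libraries lay close together for this smORF. PSMB3 IEC_11036 had 646 and 761 CPM, then 192 and 251, 170.4 and 182, and 192 and 269 CPM in the same order, with a log2 fold change of -1.66 ± 0.26 (adjusted p = 0.000109). The PSMB2, PSMB3, IEC_09832 and IEC_09838 calls held under each alternative in which the smORF was tested, the DESeq2 Wald test included.

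PSMB1, also without a proteolytic site of its own, was not called. IEC_13677 had 292 and 178 CPM in undifferentiated cells and 154 and 182 CPM in control cells (log2 fold change -0.48 ± 0.27, adjusted p = 0.173 by edgeR), and these groups overlapped. PSMB5, the subunit with the chymotrypsin-like site, had 17.3 and 7.11 CPM against 7.82 and 14.3 CPM in IEC_18731, resting on 3 to 11 counts per library, and did not pass the filter on low counts.

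Per length, PSMB3 had the highest level of the leading smORFs in undifferentiated cells, 18033 ± 2080 CPM per kilobase (SD, n = 2), followed by PSMB1 (9792 ± 3376), PSMB2 (5777 ± 128) and PSMA4 (2624 ± 107). PSMD7 (2140 ± 400) and PSMA7 (1922 ± 385) followed, and these neighbours did not differ beyond their spread. In control cells PSMB1 (7011 ± 815 CPM per kilobase) stood above PSMB3 (5674 ± 1078), a difference within their spread. These beta ring smORFs are 24 to 39 nucleotides long, about as short as a footprint, so the way reads on an edge were counted weighs on the level per length.

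**Figure D3:**
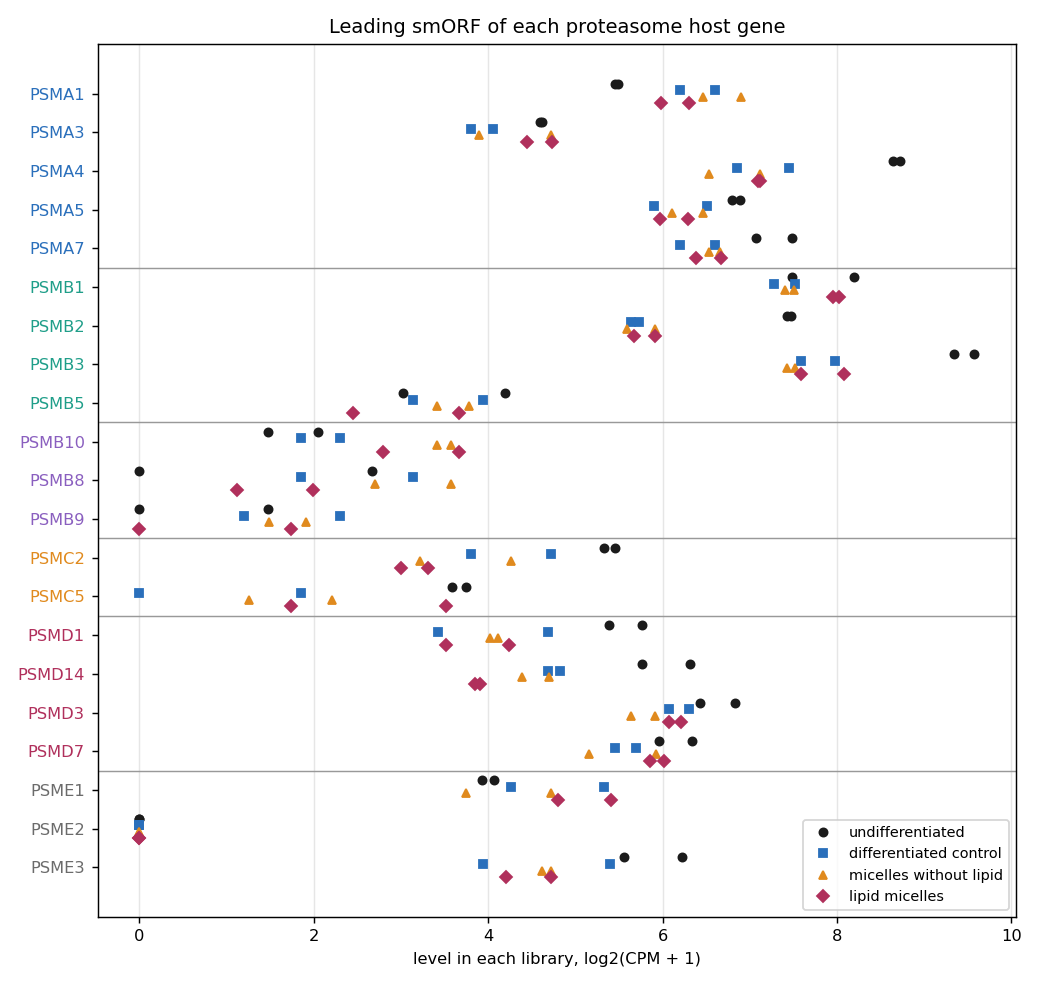
Level of the leading smORF of each host gene in every library, as log2(CPM + 1) on the x axis, with markers by group and host genes ordered by particle between the horizontal lines. PSMA4, PSMB2 and PSMB3 show both undifferentiated libraries to the right of all differentiated ones, PSMA1 shows them to the left, and PSME2 is at 0 in all 8 libraries.

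In the base of the 19S particle, the smORF IEC_12280 of PSMC2, an ATPase, had 39.3 and 42.7 CPM in undifferentiated cells, 25.4 and 13.0 CPM in control cells, 18.1 and 8.30 CPM with micelles without lipid and 8.91 and 6.99 CPM with lipid micelles. Both undifferentiated libraries lay above the other 6. The log2 fold change of -1.15 ± 0.45 on differentiation missed the threshold (adjusted p = 0.0559 by edgeR). It was called with the replicate number as a block (-1.14), against the mean of the 3 differentiated groups (-1.72), without control replicate 1 (-1.59) and without replicate 2 of micelles without lipid (-1.13). The adjusted p was 0.215 by DESeq2, 0.133 and 0.176 without undifferentiated replicate 1 or 2, and 0.420 without control replicate 2, where the log2 fold change was -0.64. The smORF of PSMC5, another of the ATPases, IEC_04131, had 7 counts in each undifferentiated library and 0 and 2 counts in the control libraries. It did not pass the filter on low counts and was called lower on differentiation without that filter. In the lipid micelle libraries it had 7 and 2 counts.

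Among the non-ATPase subunits, smORFs of PSMD14 and PSMD1 fell. PSMD14 is the deubiquitinase that removes ubiquitin chains from substrates. Its smORF IEC_05191 had 78.6 and 53.3 CPM in undifferentiated cells and 27.4 and 24.7 CPM in control cells, with a log2 fold change of -1.35 ± 0.36 (adjusted p = 0.00843 by edgeR), a level 2.55-fold lower. The micelle groups had 19.9 and 24.9 CPM without lipid and 13.4 and 13.97 CPM with lipid, below both undifferentiated libraries. The call was lost without undifferentiated replicate 1 (-1.03), without control replicate 2 (-1.23) and in the DESeq2 test. The second PSMD14 smORF, IEC_05192, had 25.1 and 17.8 CPM against 15.6 and 11.7 CPM (-0.68 ± 0.51, adjusted p = 0.307).

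PSMD1, the large scaffold subunit of the base, had 40.9 and 53.3 CPM in undifferentiated cells and 9.77 and 24.7 CPM in control cells for IEC_01906, with a log2 fold change of -1.35 ± 0.45 (adjusted p = 0.0250 by edgeR). The 3 PSMD1 smORFs end at the same base and hold nearly the same reads, so their 3 calls are 1 measurement. They lost the call without undifferentiated replicate 2, in the DESeq2 test, and without control replicate 1, where the log2 fold change of IEC_01906 was -0.87. PSMD3 and PSMD7, subunits of the lid, were not called. PSMD3 IEC_00985 had 113 and 85.3 CPM against 78.2 and 66.3 CPM (-0.47 ± 0.29, adjusted p = 0.215), and PSMD7 IEC_00189 had 61.3 and 80.0 CPM against 50.8 and 42.9 CPM (-0.60 ± 0.34, adjusted p = 0.175). For PSMD3 IEC_00985 both undifferentiated libraries lay above all 6 differentiated libraries, as for 25.8% of all smORFs tested. For PSMD7 IEC_00189 they lay above both control libraries only, a pattern whose share over all smORFs was not counted. The 2 shorter PSMD7 smORFs had -0.55 and -0.16, and the groups overlapped for the last, IEC_10094.

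Of the activators only PSME3 was called. PSME3, which forms a nuclear cap of the core, had 73.9 and 46.2 CPM in undifferentiated cells and 41.1 and 14.3 CPM in control cells for IEC_09222, a log2 fold change of -1.21 ± 0.44 (adjusted p = 0.0404 by edgeR). This was the weakest of the 10 calls and was lost without undifferentiated replicate 1 (-0.81), without control replicate 2 (-0.52), without either lipid micelle library, with at least 10 counts required in every library and in the DESeq2 test. PSME1, an interferon-inducible cap subunit, had 15.7 and 14.2 CPM against 39.1 and 18.2 CPM for IEC_09805, a log2 fold change of 0.86 ± 0.52 (adjusted p = 0.205). The 3 other PSME1 smORFs tested lie inside it and had 1.12 to 1.17, none called. Without control replicate 2, where the higher library alone stands for the control, 2 of these were called higher. PSME2, the partner of PSME1 in that cap, had 0 counts in all 8 libraries in its 1 smORF, IEC_21867, which allows up to 3.49 to 5.86 CPM depending on the library.

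**Figure D4:**
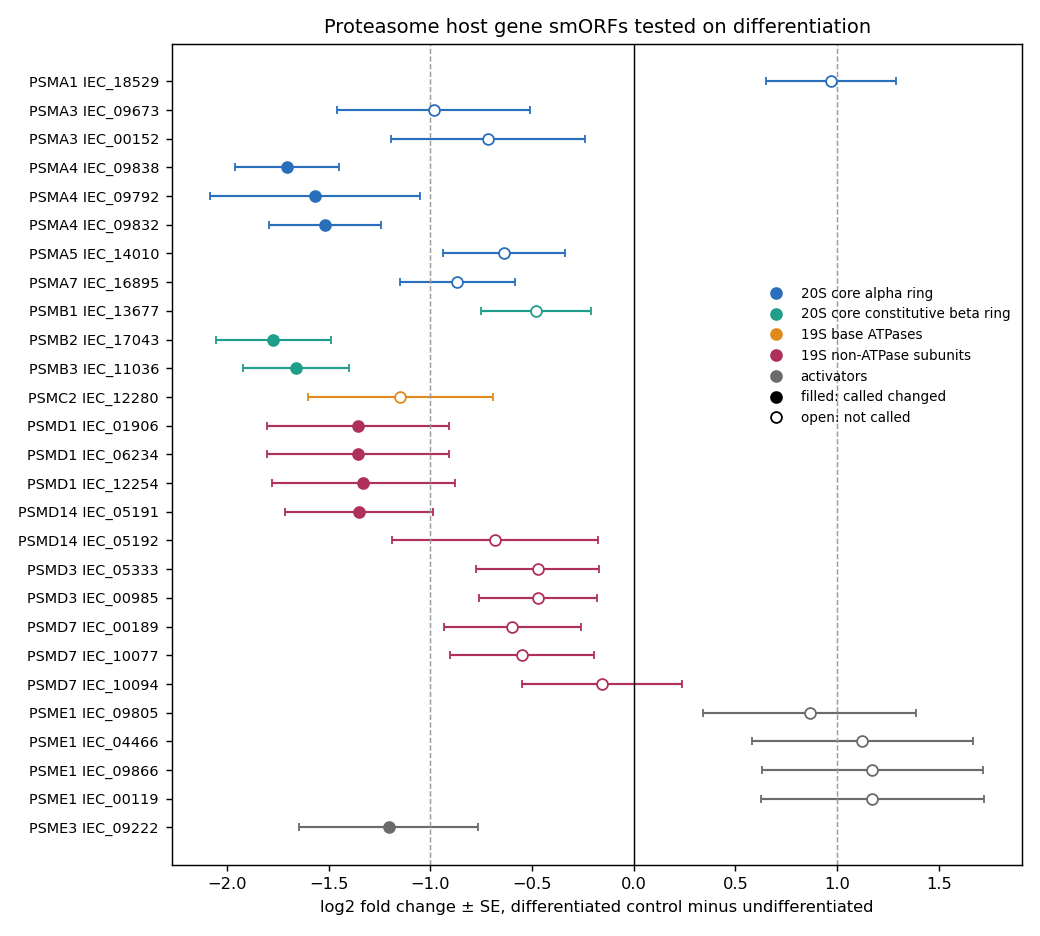
Log2 fold change of the 27 tested member smORFs, differentiated control minus undifferentiated, with its standard error, coloured by particle. The 10 called smORFs (filled) lie left of the dashed line at -1, and the PSMA1 and PSME1 smORFs are the 5 right of 0.

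The immunoproteasome smORFs did not pass the filter on low counts. Without that filter none of those with a count was called on differentiation. PSMB10 IEC_16334 had 2 and 1 counts in undifferentiated cells, 2 and 2 in control cells, 6 and 7 with micelles without lipid and 4 and 10 with lipid micelles. The undifferentiated and control libraries lay at or under 3 counts, so no difference is read from this smORF. PSMB8 IEC_17148 had 0 to 6 counts per library and PSMB9 IEC_05267 0 to 2, too few to set the groups apart, and 4 of the 7 PSMB9 members had no count anywhere. IEC_05267 carries the PSMB9 symbol in the annotation but has no base in a PSMB9 exon and lies in an exon of PSMB8-AS1. It also lies wholly opposite coding sequence of TAP1, a peptide transporter gene, so even these few reads have no certain source. A difference between groups was not detectable in PSMB8 and PSMB9 at this depth.

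The micelle comparisons asked whether bile salt micelles, with or without lipid, moved these smORFs in differentiated cells. No member was called in any of the 3 comparisons, where 0% of all 15182 smORFs tested were called in each direction. At an unadjusted p under 0.05 stood 0 of 27 members for micelles without lipid against control (4.08% of all smORFs tested), 2 of 27 for lipid micelles against control (4.66% of all) and 1 of 27 for the lipid cargo, lipid micelles against those without (4.11% of all). The DESeq2 test also called 0 members in each. Both micelle groups are set against the same 2 control libraries. Median log2 fold changes of the 27 were -0.21, 0.06 and 0.29 in that order, against 0.01, 0.00 and -0.01 over all smORFs tested.

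The members with the smallest p in these comparisons stayed far from the threshold. For micelles without lipid against control these were the overlapping PSME1 smORFs IEC_09866 and IEC_00119 (log2 fold change -0.89 ± 0.52 for both) and PSMA4 IEC_09838 (-0.45 ± 0.27), each with an adjusted p of 1 by edgeR. With lipid micelles PSMB1 IEC_13677 had 247 and 259.6 CPM, against 154 and 182 CPM in control cells, a log2 fold change of 0.58 ± 0.27 with an adjusted p of 0.957 by edgeR. These groups did not overlap, and the lipid micelle values stood within the range of the undifferentiated libraries. PSMC2 IEC_12280 had -1.21 ± 0.56 and PSMD14 IEC_05191 -0.91 ± 0.43 in the same comparison, both with an adjusted p of 0.957 by edgeR. Between lipid micelles and micelles without lipid PSMA4 IEC_09838 had 0.57 ± 0.27, PSMB1 IEC_13677 0.53 ± 0.27 and PSME1 IEC_00119 1.00 ± 0.51, each with an adjusted p of 0.999 by edgeR. Given without a test, both libraries of micelles without lipid lay below both control libraries for 8 of the 27 members (15.9% of all smORFs tested) and above them for 1 (16.2% of all). Both lipid micelle libraries lay above both control libraries for 5 (18.3% of all) and below them for 2 (17.6% of all). They lay above both libraries of micelles without lipid for 11 (15.8% of all) and below them for 2 (16.9% of all). Overlapping members that share reads count separately here.

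**Figure D5:**
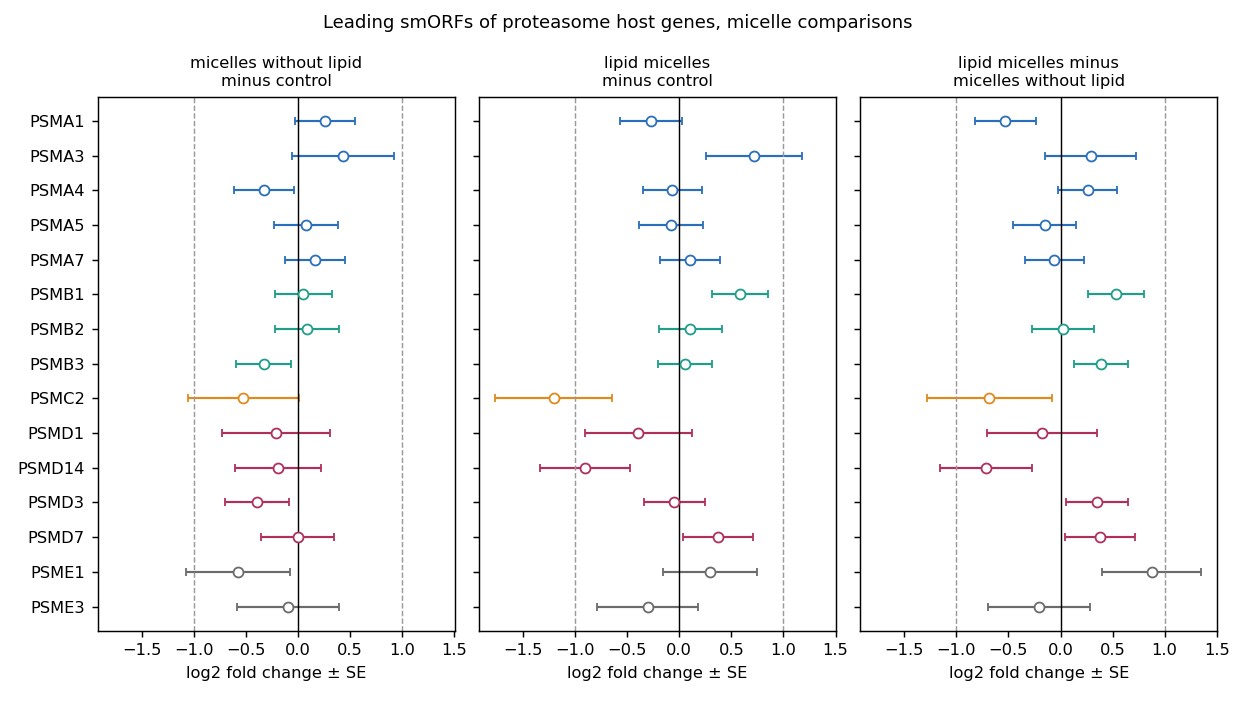
Log2 fold changes with standard errors of the 15 tested leading smORFs in the 3 micelle comparisons, coloured by particle as in the plot of differentiation, with dashed lines at -1 and 1. None is called, PSMC2 stands lowest for lipid micelles against control at -1.21, and PSMB1 stands at 0.58 there.

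Genes that work with the proteasome were read from a list of 28 that the symbols above leave out. Of these, 14 had a smORF and 12 had a smORF tested. On differentiation 11 of their 46 smORFs tested were called higher and 4 lower, where 17.7% and 15.6% of all smORFs tested were, with a median log2 fold change of 0.12, and the calls came from few genes. All 11 higher calls lay in NFE2L1, which encodes a transcription factor of proteasome genes and held 18 of the 46 smORFs. Its leading smORF IEC_10369 had 490.3 and 435 CPM in undifferentiated cells and 1013 and 1505 CPM in control cells (1.44 ± 0.26, adjusted p = 0.000435 by edgeR). The 4 lower calls lay in RAD23B and UBB. RAD23B carries ubiquitylated proteins to the proteasome, and its smORF IEC_05492 had 171 and 258 CPM against 29.3 and 66.3 CPM (-2.11 ± 0.39, adjusted p = 0.000473 by edgeR). This smORF had 129 and 217 CPM with micelles without lipid, which overlapped the undifferentiated libraries, and 62.4 and 106 CPM with lipid micelles. The low level was therefore not shared by all differentiated groups. The smORF IEC_10262 of UBB, a polyubiquitin gene, had 273 and 249 CPM against 15.6 and 9.10 CPM (-4.44 ± 0.36, adjusted p = 1.18e-07 by edgeR). NFE2L2, SEM1, AKIRIN2, TXNL1, UBA1, UBE3C, UBQLN1, ZFAND2A and ZFAND5 had no call, and no smORF of the list was called in a micelle comparison.

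Promoters of the host genes were searched for 3 motifs on both strands in RefSeq windows of GRCh38.p14, from 250 bases before to 50 bases after each annotated start. A window was given for 19 of the 21 host genes, PSMA7 and PSMB1 being the other two. TGACNNNGC is the core of the antioxidant response element that NFE2L1 and NFE2L2 bind. It was present for 15 of the 42 PSMA to PSMG genes with a window (35.7%) and for 16.1% of all 27305 genes. Among the host genes it was present for 8 of 19 (42.1%). The 8 were PSMA4, PSMB3, PSMB9, PSMC5, PSMD1, PSMD3, PSME1 and PSME2, which include smORFs that fell, smORFs that were not called and smORFs that did not pass the filter on low counts. CCAAT was present for 13 of 19 (68.4%), against 20 of the 42 (47.6%) and 39.7% of all genes. TATAAA was present for 2 of 19 (10.5%), against 5 of the 42 (11.9%) and 13.99% of all genes. A match describes the letters of the window and not a bound site.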

How the data were processed

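Per the labels and the study's methods, the authors aligned Ribo-Seq reads to hg38 with STAR (2.7.11a in the submitters' processing notes), assembled transcripts with StringTie, scored frames of up to 150 amino acids with RibORF, and counted reads per smORF with HOMER. The deposited counts are raw. Strand, exon and multi-mapping options are not given in the sources used here. The RibORF and PhyloCSF scores are also the authors' deposited values.

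Counts were joined to the annotation by smORF name, and each host gene was placed in its particle. Members, gene lists and motifs were chosen with earlier results of these data known. The named smORFs are the leading smORF of each host gene, the called members, and, where none was called, the 3 with the smallest p.

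edgeR 4.0.16 (R 4.3.3) was fitted to all smORFs and 8 libraries, with filterByExpr, TMM and 1 term per group. Standard errors come from the F statistic. With 2 libraries per group an exact permutation test cannot go below p = 0.333, so levels are a description. Alternatives were DESeq2 1.42.0, other filters and scaling, left-out libraries, overlap clusters and a replicate block. No member has a base in coding sequence on its own strand, so leaving out such members changed nothing. Replicate numbers come from the labels. Deviations of equally numbered libraries correlated at 0.198, 0.119 and 0.109 among the differentiated groups. Those of undifferentiated libraries correlated at -0.0653 to 0.0208 with the others. The main tests are unpaired, and pairing by replicate number entered only through the block alternatives. Replicates correlated at 0.883 to 0.920 on log2 CPM. On simulated data for the differentiation comparison with 14228 smORFs, 60.4% of 91 4-fold and 5.38% of 93 2-fold changes were called, with 2 false calls. The simulation changed 200 smORFs, while 17.7% and 15.6% of the smORFs tested were called higher and lower in the data. Its detection rates therefore need not hold for the data. Annotation came from GENCODE 44, and figures from matplotlib 3.10.9. The sequence of all 45 members equals hg38. Some genes of the partner list are not reported here and were left out of its counts.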

Additional observations from a re-analysis of the deposited data

How the results depend on the processing

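On differentiation, 10 members were called lower and 0 higher. The count of lower calls was 4 of 27 by the DESeq2 Wald test (9.85% of all smORFs tested) and 6 of 16 with 1 smORF per overlap cluster (15.7% of all). With at least 10 counts in every library it was 4 of 14 (11% of all), and 1 was called higher (PSMA1), against 12.6% of all. It was 10 with median-of-ratios size factors (15.9% of all), 11 of 40 without the low-count filter, adding PSMC5 (12.3% of all), and 11 against the mean of the 3 differentiated groups (18.4% of all). Calls lost when a library was left out are named with their smORFs above. Counts of calls on differentiation are not given for these fits, since 1 library then stands for a group. The replicate block in all 8 libraries gave 11 lower calls (15.8% of all), adding PSMC2. In the micelle comparisons the block, in 8 or in the 6 paired differentiated libraries, and each other alternative called 0 members. The median log2 fold change on differentiation was -0.53 with 10 counts in every library, -0.49 without the filter and -0.81 to -0.59 with a library left out. That of micelles without lipid was 0.015 and -0.050 under the same 2 filters and -0.27 to -0.053 with a library left out. That of lipid micelles against control ran from -0.089 to 0.23 with a library left out, and that against micelles without lipid was 0.086 without the filter and 0.029 to 0.32 with a library left out, so that the sign changed for both comparisons with the control. Of 398 alternative values of single named smORFs, 367 changed neither direction nor call, 21 lost a call, 10 gained one and 0 changed sign. The cause was not tested. Depth limits PSMB5, PSMC5, PSME2 and the immunoproteasome smORFs, which held 0 to 11 counts per library.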
